A study of Phycomyces blakesleeanus with 24 samples.

Results

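Heterotrimeric G proteins relay signals from receptors in the cell membrane. An alpha subunit binds GTP when the receptor is active and separates from a paired beta and gamma subunit, and both parts can then act on targets such as adenylyl cyclase and protein kinases. In fungi these proteins are known for roles in mating, nutrient sensing and development. The genes described here are the alpha subunit gene Gpa1B (PHYBLDRAFT_74741) and the 4 beta subunit genes Gpb1 (PHYBLDRAFT_104565), Gpb2 (PHYBLDRAFT_153895), Gpb3 (PHYBLDRAFT_14376) and Gpb4 (PHYBLDRAFT_79980) of the fungus Phycomyces blakesleeanus, with their roles taken from their symbols. They were taken by symbol from a RefSeq gene table of assembly Phybl2, and are 5 of the 14490 genes in the 4 tables of the series. They were selected on their light against dark values, since the fold changes and FDRs in these tables were known when they were chosen by symbol. Those values are therefore given as a description and support no test.

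The study sequenced RNA of mycelium, the feeding network of hyphae, and of sporangiophores, the stalks that carry the spores, each grown on PDA (potato dextrose agar) in light or in darkness. The 24 libraries were made from wild type and from the strain ΔL51, labelled as a photoreceptors mutant, whose alleles the labels do not name. Each of the 8 groups of strain, structure and light had 3 biological replicates, of which the authors left out 4 libraries for their greater dispersion. Wild type mycelium kept 2 dark and 3 light libraries, wild type sporangiophores 2 and 2, mutant mycelium 3 and 3, and mutant sporangiophores 2 and 3. The series title concerns the expansion of signalling pathways by genome duplication, and the copies of the beta subunit gene are compared here with that question in view.

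Each comparison of light with dark was read from one of the authors' deposited tables, which give the log2 fold change (light over dark by the title of the table), the average log2 CPM over libraries (reads scaled to library size, on a log2 scale) and an FDR from edgeR. No values per library were analysed here and the depth is unknown, so no value per replicate, no level in light or dark and no check of the structures against marker genes can be given. The error of each fold is an approximate standard error, the size of the fold divided by the square root of its likelihood ratio, and the 95% intervals are built from it. A gene is called where the authors' FDR is under 0.05. RNA from bulk cultures cannot tell fewer cells that express a gene from less RNA per cell.

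In wild type mycelium the copies of the beta subunit gene went separate ways in light. Gpb3 rose and Gpb1 fell, while Gpb2 and Gpb4 were not called, and the alpha subunit gene Gpa1B fell. The authors' deposited table called 1 of the 5 genes higher, where 9.86% of all genes were called higher, and 2 lower, where 4.18% of all genes were. With 5 genes chosen in view of these values, nothing is read from that count. The median log2 fold change of the 5 genes was -0.54, against 0 for all genes of the same authors' deposited table and 0.39 for those whose fold was not exactly 0. Relative to that shift of 0.39, Gpb3 had 6.34, Gpb1 -3.46 and Gpa1B -2.21, and the calls of the 5 genes stayed as they were.

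Gpb3 had the largest fold of any subunit gene. Its log2 fold change in wild type mycelium was 6.73 ± 1.50 (approximate SE), with an interval of 3.79 to 9.67 and an FDR of 2.1e-04 in the authors' deposited table. That fold was the 26th highest among 14410 genes. Its likelihood ratio was the 506th highest of that authors' deposited table, and its standard error of 1.50 compares with a median of 0.57 over the genes whose fold was not 0. How many reads the dark libraries held for Gpb3 was not analysed here, and against a group with hardly any reads a fitted fold depends on the fit's own settings, so its size is not a firm estimate.

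Gpb1 went the other way. Its log2 fold change was -3.08 ± 1.12 (approximate SE), an 8.43-fold lower value in light, with an interval of -5.28 to -0.87 and an FDR of 0.0460 in the authors' deposited table. This was the weakest of the 3 calls, just under the FDR limit. The fold lay within 0.01 of that of 230 other genes in the same authors' deposited table, 1 of which was called. The likelihood ratio of Gpb1 was 7.48, against a median of 1.58 in those 230 genes. The reads behind these repeated folds were not analysed here.

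Gpa1B was lower in light by a smaller amount but with a narrower error. Its log2 fold change in wild type mycelium was -1.83 ± 0.53 (approximate SE), a 3.55-fold lower value, with an interval of -2.87 to -0.78 and an FDR of 0.00747 in the authors' deposited table. The authors' likelihood ratios were also read against an F distribution with 12 degrees of freedom, to allow for the small number of libraries. The 12 takes the 20 kept libraries and the 8 groups as one fit. Mutant mycelium came from a separate fit, so the degrees of freedom behind the authors' values are not known. On that reference the calls of Gpa1B (Benjamini-Hochberg adjusted p = 0.0620) and of Gpb1 (0.133) ended and that of Gpb3 held (0.0214). With 3 degrees of freedom, those of wild type mycelium alone, the call of Gpb3 ended too (0.511), and no gene of the table was called. The other 2 beta subunit genes stayed near 0 within their errors. Gpb2 had -0.17 (interval -0.79 to 0.45, FDR 0.935) and Gpb4 had -0.54 (interval -1.78 to 0.71, FDR 0.717) in that authors' deposited table. The wide interval of Gpb4 does not show that it was unaltered.

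**Figure D1:**
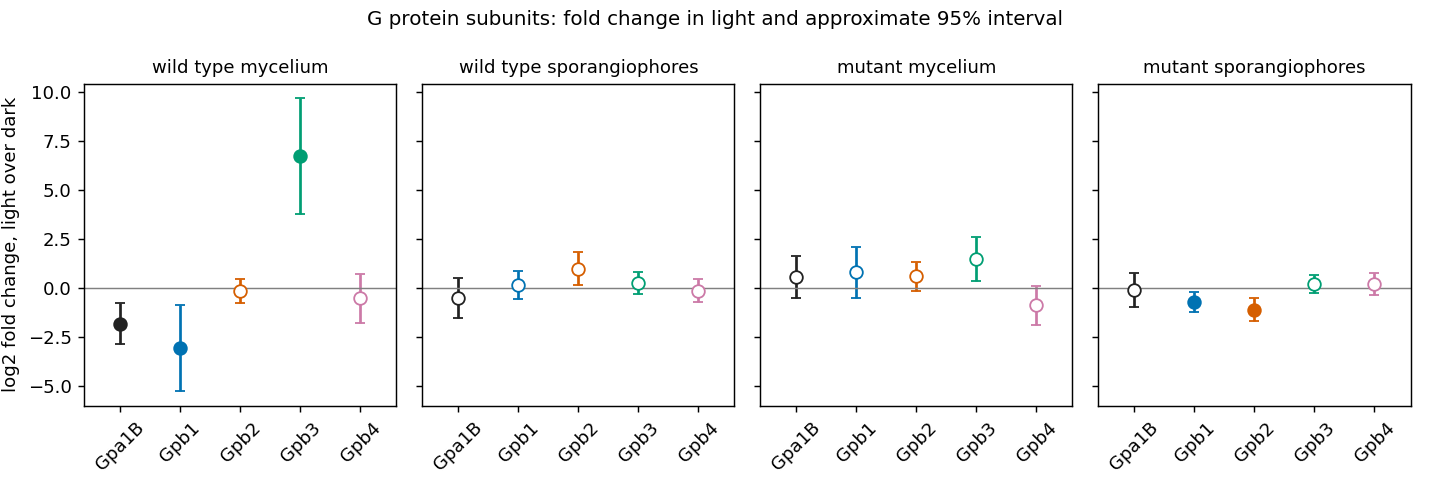
Log2 fold change in light over dark (vertical axis) of the 5 subunit genes in each of the 4 comparisons, from the authors' deposited tables. Bars are approximate 95% intervals and filled points have an authors' FDR under 0.05. Gpb3 stands at 6.73 and Gpb1 at -3.08 in wild type mycelium, while in the other panels all folds lie between -1.11 and 1.48.

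In wild type sporangiophores none of the 5 genes was called by the authors' edgeR test, and 1 of them, Gpb2, had an unadjusted p under 0.05. The authors' deposited table called 8.41% of all genes there in either direction and put 18.5% at an unadjusted p under 0.05. Gpb2 had the largest fold of the 5, 0.99 ± 0.44 (approximate SE), or 1.98-fold, with an FDR of 0.180 in that authors' deposited table. Gpb3, at 0.25 ± 0.28, was far from its fold in mycelium. Gpb1 (0.13 ± 0.37), Gpb4 (-0.14 ± 0.31) and Gpa1B (-0.53 ± 0.52) also had intervals that include 0 in the authors' deposited table.

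Mutant mycelium likewise had 0 of 5 genes called by the authors' edgeR test, with 1, Gpb3, at an unadjusted p under 0.05. This table called 1.12% of all genes in either direction and had 9.32% at an unadjusted p under 0.05. Gpb3 again had the highest fold of the 5 genes, 1.48 ± 0.58 (approximate SE), or 2.79-fold, with an interval of 0.35 to 2.61 and an FDR of 0.261 in the authors' deposited table. Its likelihood ratio was 6.62, the 549th highest of 14242 genes, against 20.1 and the 506th highest in wild type mycelium. Of the genes in mutant mycelium 159 were called, so that rank lay outside them. Gpb4 was lowest at -0.90 ± 0.52 (FDR 0.633). Gpb1 (0.79 ± 0.66), Gpb2 (0.58 ± 0.37) and Gpa1B (0.57 ± 0.54) had folds above 0 with intervals that include 0, in the authors' deposited table.

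In mutant sporangiophores Gpb1 and Gpb2 fell in light, and Gpb3, Gpb4 and Gpa1B were not called. For Gpb2 the authors' deposited table gave -1.11 ± 0.30 (log2 fold change and approximate SE), a 2.17-fold lower value, with an interval of -1.70 to -0.53 and an FDR of 0.00187. Gpb1 had -0.72 ± 0.26, a 1.64-fold lower value, with an FDR of 0.0384 in that authors' deposited table. The count was 2 of 5 lower and 0 higher, where 12.3% of all genes were called lower and 3.31% higher. Gpb3 (0.21 ± 0.23) and Gpb4 (0.21 ± 0.28) had nearly the same fold, and Gpa1B had -0.12 ± 0.45 in the authors' deposited table. Under the F reference with 12 degrees of freedom the call of Gpb1 ended (adjusted p = 0.116) and that of Gpb2 held (0.0300), and with 3 both ended (0.477 and 0.363). As in every comparison here, the sign rests on the title of the table alone.

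**Figure D2:**
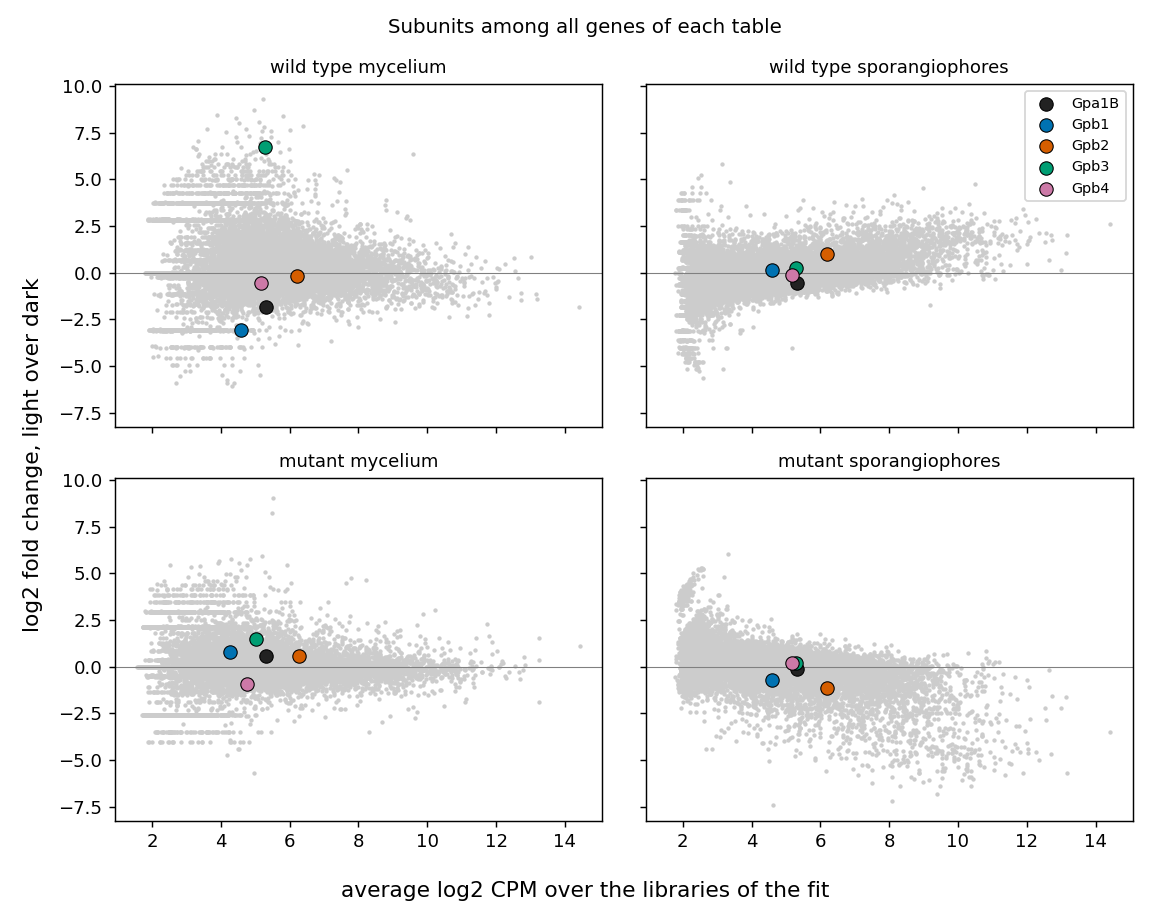
Log2 fold change in light over dark (vertical axis) against average log2 CPM (horizontal axis) for all genes (grey) and the 5 subunit genes (coloured) in the authors' 4 deposited tables. Gpb3 lies near the top edge in wild type mycelium, and Gpb1 lies on one of the horizontal lines of genes with repeated folds.

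In average log2 CPM the 5 genes lay from just below the middle of all genes (Gpb1, percentile 48.9) to percentile 79.7 (Gpb2) in 3 comparisons. Those comparisons cover both structures with one average, so it does not give the level in mycelium. In the 3 comparisons that share one average log2 CPM per gene, that value was 4.59 for Gpb1, 5.18 for Gpb4, 5.29 for Gpb3, 5.32 for Gpa1B and 6.21 for Gpb2 in the authors' deposited tables. These are not per length, so they do not order the genes by level. Because folds can move with expression level in these tables, they were also set beside genes of like level. The 500 genes nearest to Gpb2 in average log2 CPM had a median fold of 0.02 in wild type and -0.06 in mutant sporangiophores. Less these medians, Gpb2 had 0.97 and -1.06, so its folds there were nearly as large with that median taken off.

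Set side by side, the strains differed most for Gpb3, Gpb1 and Gpa1B in mycelium and for Gpb2 in sporangiophores. The mycelium fold of Gpb3 in the wild type less that in the mutant was 5.25 ± 1.61 (approximate SE, interval 2.10 to 8.40), from the authors' deposited tables. For Gpb1 the same difference was -3.87 ± 1.30 (interval -6.42 to -1.31) and for Gpa1B it was -2.39 ± 0.76 (interval -3.88 to -0.91). Gpb1 and Gpa1B thus had folds below 0 in wild type mycelium and above 0 in mutant mycelium, where neither was called. The mycelium difference of Gpb2 was -0.75 (interval -1.71 to 0.20) and that of Gpb4 was 0.36 (interval -1.24 to 1.97), so both include 0.

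Gpb2 had opposite signs in the sporangiophores of the strains, 0.99 in the wild type and -1.11 in the mutant in the authors' deposited tables. Their difference was 2.10 ± 0.53 (approximate SE), with an interval of 1.06 to 3.14. The median fold of all genes was -0.05 in wild type and 0.05 in mutant sporangiophores, opposite in sign to Gpb2. The authors' calls over all genes leaned the same ways as Gpb2. How many single genes changed sign between the strains as Gpb2 did was not counted. Of 14410 genes, 1042 were called higher and 170 lower in wild type sporangiophores. In mutant sporangiophores 477 were called higher and 1779 lower. Gpb1 differed by 0.84 (interval -0.03 to 1.72), Gpb3 by 0.04 (interval -0.66 to 0.75), Gpb4 by -0.35 (interval -1.16 to 0.46) and Gpa1B by -0.41 (interval -1.76 to 0.93) between the sporangiophores. These differences describe genes that were chosen with the folds known, and no p is given for them. The comparisons share no libraries, but mutant mycelium came from a separate fit by the authors.

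**Figure D3:**
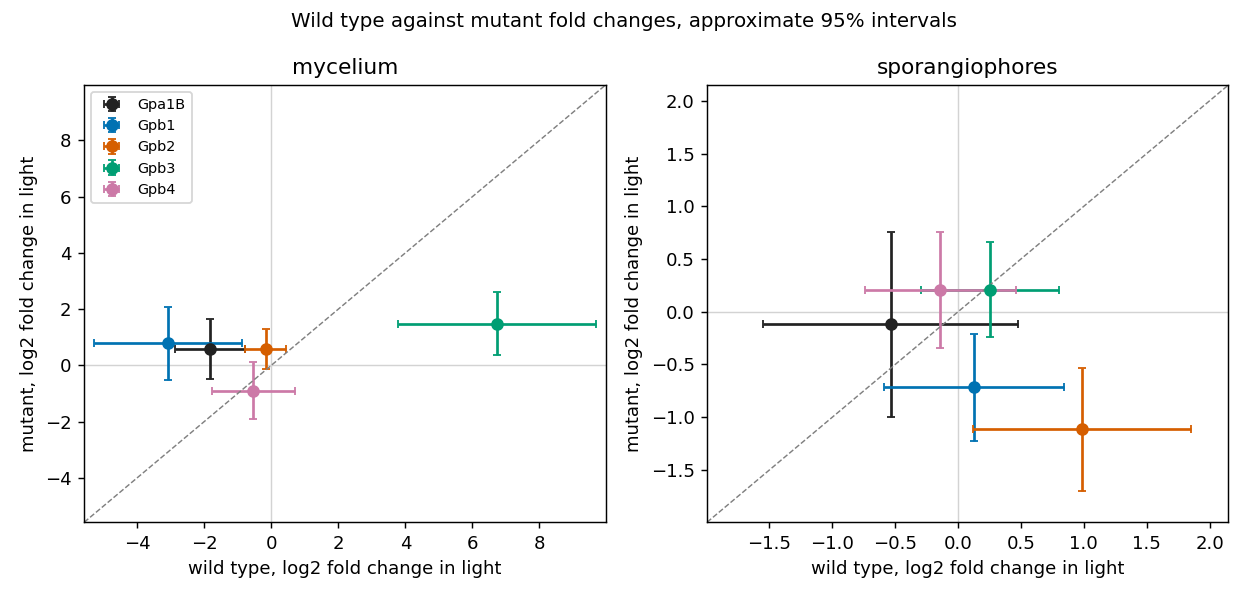
Log2 fold change in light of the 5 subunit genes in the mutant (vertical axis) against the wild type (horizontal axis), for mycelium and sporangiophores, from the authors' deposited tables. Bars are approximate 95% intervals and the dashed line marks equal folds. Gpb3, Gpb1 and Gpa1B lie off the line in mycelium, and Gpb2 in sporangiophores.

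Folds also differed between the structures of one strain. The fold of Gpb3 in wild type mycelium exceeded that in wild type sporangiophores by 6.48 ± 1.53 (approximate SE, interval 3.48 to 9.47), from the authors' deposited tables. The same difference between folds was -3.20 (interval -5.52 to -0.89) for Gpb1 and -1.15 (interval -2.22 to -0.09) for Gpb2. For Gpa1B it was -1.29 (interval -2.75 to 0.16) and for Gpb4 -0.40 (interval -1.78 to 0.99), so both include 0. In the mutant, the mycelium fold exceeded the sporangiophore fold by 1.70 (interval 0.77 to 2.63) for Gpb2. The excess was 1.51 (interval 0.11 to 2.90) for Gpb1 and 1.27 (interval 0.06 to 2.49) for Gpb3. The mutant differences of Gpa1B, 0.69 (interval -0.69 to 2.07), and Gpb4, -1.11 (interval -2.26 to 0.04), had intervals that include 0. Over the 4 comparisons, Gpb4 had the narrowest range of folds of the 5 genes, from -0.90 to 0.21, and Gpb3 the widest, from 0.21 to 6.73, in the authors' deposited tables. Gpb3 was also the single gene of the 5 with a fold above 0 in all 4 comparisons. The structures differed over all genes too. A fold of exactly 0 was held by 3193 of 14410 genes in wild type mycelium and 2793 of 14242 in mutant mycelium. Wild type sporangiophores had 9 such genes and mutant sporangiophores 0. Among genes with other folds, the median approximate SE was 0.57 and 0.56 in wild type and mutant mycelium, and 0.46 and 0.39 in their sporangiophores.

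The beta subunit genes form 6 pairs of copies, and how far apart the copies stood depended on the comparison. In wild type mycelium the sizes of the 6 differences in log2 fold change ran from 0.37 (Gpb2 and Gpb4) to 9.81 (Gpb1 and Gpb3), with a median of 4.90. The Gpb1 value less the Gpb3 value was -9.81, with an approximate interval of -13.5 to -6.13. The pairs without Gpb3 differed by 0.37, 2.54 and 2.91, and those with it by 6.90 to 9.81. In wild type sporangiophores the same differences ran from 0.13 to 1.13 with a median of 0.56, closer together as estimates. The folds of Gpb1, Gpb3 and Gpb4 had smaller errors there than in wild type mycelium, and Gpb2 a larger one, so the spreads are not strictly alike. The largest, Gpb2 less Gpb4, was 1.13 (interval 0.07 to 2.18). Mutant mycelium had a median of 1.19 and a largest difference of 2.38, Gpb3 less Gpb4 (interval 0.87 to 3.90).

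In mutant sporangiophores the called copies, Gpb1 and Gpb2, stood apart from Gpb3 and Gpb4, which were not called and had intervals that include 0. Gpb3 and Gpb4 differed by 0.0027 (interval -0.70 to 0.71) and Gpb1 and Gpb2 by 0.40 (interval -0.37 to 1.17), in log2 fold change. Across these pairs, Gpb2 less Gpb3 was -1.33 (interval -2.06 to -0.59) and Gpb1 less Gpb4 was -0.92 (interval -1.67 to -0.18). The same grouping was not seen in mycelium, where Gpb3 and Gpb4 were 7.27 apart in the wild type and 2.38 apart in the mutant. Nor was it seen in wild type sporangiophores, where Gpb1 lay 0.13 from Gpb3 and 0.86 from Gpb2. Copies within a comparison share their libraries, so these intervals, which treat their errors as independent, are rough. Reads that fit more than one copy could be split between copies, and how the authors counted such reads is not given in the sources used here.

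Gpa1A (PHYBLDRAFT_80143), the alpha subunit gene named as the copy of Gpa1B, also fell in wild type mycelium. Its log2 fold change was -1.44 ± 0.38 (approximate SE), a 2.71-fold lower value, with an FDR of 0.0023 in the authors' deposited table. The Gpa1A value less the Gpa1B value was 0.39 (interval -0.89 to 1.67), so the alpha copies were not distinguishable there. The same held for the beta pair Gpb2 and Gpb4 (0.37, interval -1.02 to 1.76). The other 5 of the 6 beta pairs had intervals without 0. Each of those 5 holds Gpb1 or Gpb3, so they are not separate differences. The interval of Gpb1 less Gpb4, -5.07 to -0.0082, only just left out 0. In wild type sporangiophores Gpa1A less Gpa1B was 0.78 (interval -0.44 to 2.01), and in mutant sporangiophores it was -0.14 (interval -1.18 to 0.90). Mutant mycelium had them on opposite sides of 0, with Gpa1A at -0.69 and Gpa1B at 0.57 in the authors' deposited table, a difference of -1.26 (interval -2.65 to 0.13). Neither alpha copy was called outside wild type mycelium.

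The other subunit genes were counted too. Besides Gpa1A, the symbols gave the alpha subunit genes Gpa2B, Gpa2C and gpa3 and the gamma subunit gene Gpg2, and in these 4 comparisons the call of Gpa1A was the single one. In wild type mycelium 1 of these 5 genes was lower and 0 higher, where 4.18% of all genes were called lower and 9.86% higher, and their median fold on the log2 scale was -0.05 in the authors' deposited table. The authors' edgeR test called 0 of the 5 in the other 3 comparisons, where it called 8.41% of all genes in the wild type's sporangiophores and 1.12% in mycelium of the mutant. The sporangiophores of the mutant had 3.31% called higher and 12.3% lower. With 5 genes nothing is read from these counts either. At an unadjusted p under 0.05 the authors' deposited tables held 1 in wild type sporangiophores, Gpa2C at -1.03 ± 0.52, and 0 in both mutant comparisons. Gpg2, whose product would pair with a beta subunit, had -0.05 in wild type mycelium, 1.76 ± 1.02 (FDR 0.369) in the wild type's sporangiophores, and in the mutant 0.75 in mycelium and -0.38 in sporangiophores. gpa3 had folds from -0.63 to 0.23 and Gpa2B from -0.29 to 0.56 over the authors' deposited tables.

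Ga3, an alpha subunit gene by its symbol that was added by name after the values were seen, had 2.18 ± 1.25 (FDR 0.284) in wild type mycelium and 1.75 ± 0.86 (FDR 0.504) in mutant mycelium in the authors' deposited tables. In sporangiophores it had -0.20 in the wild type and -0.29 in the mutant. It was not called in any comparison, and its folds in mycelium had wide errors in both strains.

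**Figure D4:**
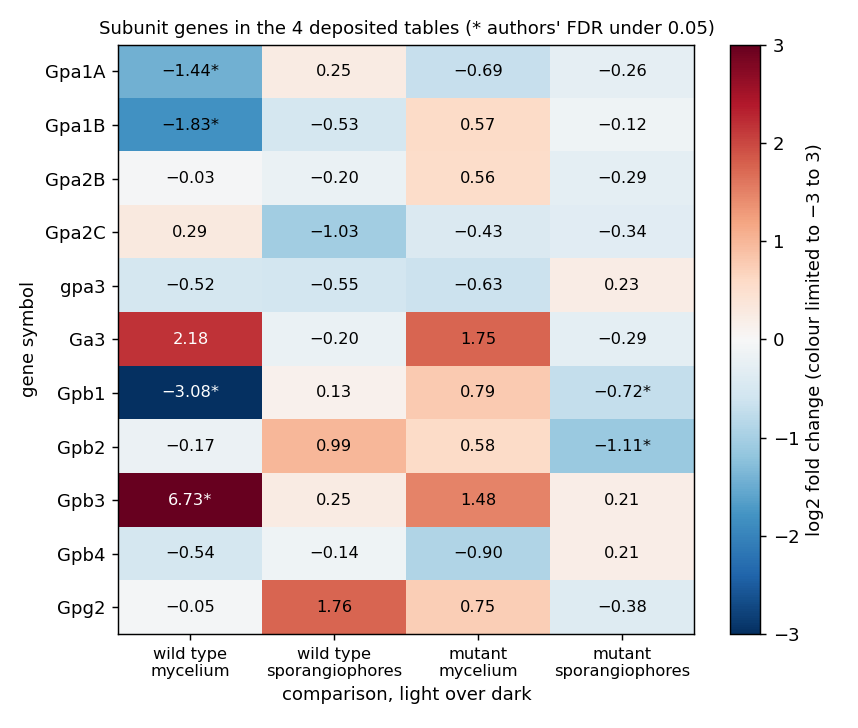
Log2 fold change in light over dark of 11 subunit genes (rows) in the 4 comparisons (columns) from the authors' deposited tables, with colour limited to the range of -3 to 3 and a star where the authors' FDR was under 0.05. Stars fall on Gpa1A, Gpa1B, Gpb1 and Gpb3 in wild type mycelium and on Gpb1 and Gpb2 in mutant sporangiophores.

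The neighbouring signalling genes were counted in the same way. The list held 12 genes, namely 4 regulatory and 6 catalytic subunit genes of the cAMP-dependent kinase, which responds to the product of adenylyl cyclase, and the protein kinase C genes PKC1 and PKC4. In wild type mycelium 2 were higher and 1 lower, where 9.86% of all genes were called higher and 4.18% lower. In mutant sporangiophores also 2 were higher and 1 lower, where 3.31% were called higher and 12.3% lower. With 12 genes nothing is read from these counts. The authors' edgeR test called 0 in wild type sporangiophores and 0 in mutant mycelium, where it called 8.41% and 1.12% of all genes. At an unadjusted p under 0.05 there were 3 and 2 in those comparisons. The higher genes in wild type mycelium were PKC1 and the catalytic subunit gene pkaC2 (0.89 ± 0.29, FDR 0.0191), and the lower one was the regulatory subunit gene PkaR1 (-0.83 ± 0.28, FDR 0.0284), in the authors' deposited table. In mutant sporangiophores the catalytic subunit gene pkaC9 was lower at -1.24 ± 0.42 (FDR 0.0243), and PKC1 (0.62 ± 0.23) and the regulatory subunit gene PkaR2 (0.64 ± 0.23) were higher, in the authors' deposited table. The list medians were 0.13 and 0.13 in those 2 comparisons, against 0 and 0.05 over all genes. Among genes of wild type mycelium whose fold was not exactly 0 the median was 0.39, so the list lay below those genes.

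The pattern over the 4 comparisons was also set beside 197 other genes with a symbol, by the Euclidean distance between the 4 log2 fold changes. Genes without a symbol were not compared, and any of them may lie closer. Among the 197, the genes nearest to Gpb3 were WctD at a distance of 1.39, PPK2 at 1.82 and WcoA at 1.89. The distance takes no account of errors, and the wild type mycelium fold of Gpb3, with an approximate SE of 1.50, is by far its largest value. In mutant mycelium PPK2 had -0.02, beside 1.48 for Gpb3. WcoA belongs to the White Collar 1 family of photoreceptor proteins and WctD to the family of their White Collar 2 partners, and PPK2 is a protein kinase by the study's naming. WctD had 6.61, 0.68, 2.76 and -0.09 in mycelium and sporangiophores of the wild type and then of the mutant, from the authors' deposited tables, beside 6.73, 0.25, 1.48 and 0.21 for Gpb3. Nearest to Gpb2 were Pp2B2 at 0.52, pkaC9 at 0.56 and CK2B at 0.62, and nearest to Gpb4 were hmgR at 0.26, NDE at 0.53 and carRA3 at 0.65.

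Gpa1B and Gpb1 had 2 nearest genes in common. Gpa1B was nearest to NDUFA6 at a distance of 0.87, RIM15 at 0.97 and INH1_2 at 1.07. Gpb1 was nearest to INH1_2 at 1.83, NDUFA6 at 1.89 and NDUFA4_2 at 1.98. With 4 values per gene, these distances are descriptions of the folds alone.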

How the data were processed

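Per the labels' protocols, extraction used Trizol and a Message Amp-II kit followed. Bowtie and edgeR were used, per the submitters' processing notes. Their versions, the genome build, the annotation and the counting rule are not given in the sources used here. The 4 deposited tables give, per the file headers, log2 fold change, average log2 CPM, a likelihood ratio score, its p-value and the FDR. The p-value was checked to be that of a chi-square test on the likelihood ratio, and the FDR its Benjamini-Hochberg adjustment over the table. The average log2 CPM was the same in 3 tables and differed for all 14162 shared genes in mutant mycelium. The authors' choice of libraries was made on measured dispersion, which narrows the spread their test sees.

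Row numbers were matched to locus tags of assembly Phybl2, where 14355 of 14410 (99.6%) matched. Intervals at 95%, differences and the other settings were computed with Python 3.11.15, pandas 2.3.3 and scipy 1.17.1, and checked on simulated data. Members and gene lists were chosen with earlier results of these data known. Named genes were the 5 members, every other symbol starting with Gpa, Gpb or Gpg, and the 3 symbol-bearing genes nearest to each member over the 4 folds. The list of neighbouring signalling genes was set by the start of the symbol. Starts sought for RGS proteins, adenylyl cyclase, phosphodiesterase, phospholipase C, small GTPases, receptors and Ste kinases matched no gene. Protein and promoter sequences were not used here. A count test was planned where counts were given, and the authors' test was used in its place.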

Additional observations from a re-analysis of the deposited data

How the results depend on the processing

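No paired analysis was possible because the tables hold no values per library, and fits without a replicate were not run for the same reason. Referring the likelihood ratio to an F distribution with 1 and 12 degrees of freedom left 1 of the 5 genes called in wild type mycelium (Gpb3) and 1 in mutant sporangiophores (Gpb2). The calls of Gpa1B (-1.83, adjusted p = 0.0620) and Gpb1 (-3.08, adjusted p = 0.133) in wild type mycelium and of Gpb1 in mutant sporangiophores (-0.72, adjusted p = 0.116) ended. With the residual degrees of freedom of each comparison alone, from 2 to 4, that F reference called 0 genes of any kind in any table. The calls of Gpb3 (6.73, adjusted p = 0.511) and of Gpb2 in mutant sporangiophores (-1.11, adjusted p = 0.363) then ended too. An FDR limit of 0.01 ended both calls of Gpb1 (-3.08 and -0.72), and in mutant sporangiophores it left 1 gene called. A minimum log2 fold change of 1 also left 1 gene called there. The filter at the median average log2 CPM left 1 called as well, since Gpb1 lies below that median in each table. Centring on the median fold other than 0, and subtracting the median fold of genes of like level (chosen after seeing the data), changed no call of the 5 genes and no direction. Of the 136 gene values under other settings, 125 kept direction and side of the FDR limit, 11 lost the call and 0 reversed. Only centring and subtracting the like-level median alter a fold, so the other settings could not reverse a direction. All 11 losses fell on the 5 called values of the 20, the only ones with a call to lose. Differences between copies do not change with centring. Depth is unknown, so what it limits could not be measured.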
